A study of Mus musculus with 13 samples.

Results

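The receptors Robo1 and Robo2 and the ligands Slit1, Slit2 and Slit3, matched by symbol, are 5 of the 32285 genes in the deposited matrices. They were chosen by earlier results of the same data, among them the UMI levels and age difference of Robo1 in oligodendrocyte-like nuclei, so their levels, and every value of Robo1 in that class, are given as description.

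Slit proteins and their Robo receptors form a guidance system of the nervous system. Slit1, Slit2 and Slit3 are large secreted ligands that bind the extracellular domain of Robo receptors, with heparan sulfate proteoglycans as co-receptors, and the bound receptor acts on the actin cytoskeleton through srGAP proteins. The system is best known for repelling axons and migrating neurons, including at the midline of the developing nervous system, and it also shapes dendrites, synapses and vessels.

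The measurements were single-nucleus RNA counts of whole frozen hippocampus from 13 female mice of a hybrid strain that the series text calls C3B6F1 and the sample labels C3HB6F1. Young mice fed ad libitum were 5 months old (n = 3), and the 3 other groups were 24 months old. Old mice were fed ad libitum throughout (n = 3), were dietary restricted from 5 months of age, called long-term restriction (n = 4), or were restricted from 20 months of age, called acute restriction (n = 3). Each library is labelled as a separate hippocampus sample, and nothing in the labels tells whether tissue of several mice was pooled, so p-values measure the spread between these samples, called mice below. No restricted young group was among the samples, and the 3 old ad libitum mice were the control of both restriction comparisons and the old group of the age comparison.

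After filtering, 98041 nuclei were kept and 79797 of them fell into 15 classes named by marker genes, each called by its name with "-like". Of the 118 marker entries of these classes, 116 were at least 2-fold above the median of the other classes. The names were given by these same markers, so this share is no separate check of them. The libraries held 38546292 to 80538090 unique molecular identifiers (UMIs, counts of distinct captured RNA molecules), with median UMIs per nucleus of 3688 to 11195. At least 2 libraries shared 1351 barcode sequences, up to 0.473% of the smaller library of a pair. Xist was counted in 92.9% to 98.9% of the nuclei of each library, as the female label requires. The 4 libraries numbered 1 stood apart from the other libraries: in granule-like nuclei their deviations from their group means correlated with each other at 0.36 to 0.78 (6 pairs, Pearson r across genes), so results that rest on them are also given without them. The members' levels are CPM, the UMIs of a gene per 1000000 UMIs of the summed nuclei of 1 class in 1 mouse, used where a mouse had at least 20 such nuclei. In such sums fewer expressing nuclei and less RNA per nucleus cannot be told apart, and CPM values are compared between classes and mice, not between genes. Statements that groups of mice do or do not overlap are description. With so few mice per group full separation can arise by chance, and its share over all genes is not given here.

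The genes themselves are long. In the GRCm38 annotation (GENCODE M21), Robo1 spans 738 kb of chromosome 16 (72308306 to 73046095, plus strand) and Robo2 spans 520 kb of the same chromosome (73891839 to 74411825, minus strand). Slit1 spans 143 kb of chromosome 19 (41600257 to 41743665, minus strand), Slit2 325 kb of chromosome 5 (47983138 to 48307733, plus strand) and Slit3 587 kb of chromosome 11 (35121224 to 35708507, plus strand), against a median of 12.3 kb over the genes in the matrices with a span. Slit2 and Slit3 also host the microRNA genes Mir218-1 and Mir218-2. The counted genes 4930518C09Rik and Gm20475 lie over Slit2, and Gm12122 over Slit3, and whether reads were assigned by strand is not given in the sources used here, so UMIs of these overlapping genes may be split between them.

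Robo1 was highest in inhibitory neuron-like nuclei at 1772 ± 214 CPM (SD, n = 13 mice). Fibroblast-like nuclei followed at 1632 ± 340 CPM (n = 8), oligodendrocyte-like nuclei at 1416 ± 428 CPM (n = 13), oligodendrocyte precursor-like nuclei at 1215 ± 182 CPM (n = 13) and Cajal-Retzius neuron-like nuclei at 1060 ± 352 CPM (n = 7). These neighbours lay within each other's spread: inhibitory nuclei exceeded fibroblast-like nuclei in 6 of 8 mice, and oligodendrocyte-like nuclei exceeded their precursors in 8 of 13. The oligodendrocyte-like level depended on the clustering. At a finer Leiden resolution of 2 this class held 3585 nuclei instead of 10010. Its Robo1 mean was then 804 ± 285 CPM (n = 12), below the precursors at 1280 ± 172 CPM (n = 13). Among excitatory neurons the order was CA3-like (920 ± 119 CPM), mossy cell-like (902 ± 205 CPM, n = 8), subicular or cortical (624 ± 115 CPM), CA1-like (457 ± 47.7 CPM) and dentate granule-like (99.2 ± 56.6 CPM). CA3-like nuclei exceeded mossy cell-like nuclei in only 5 of 8 mice, whereas subicular nuclei exceeded CA1-like nuclei in 12 of 13. Microglia-like nuclei, the class used below as background, gave the lowest level at 36.2 ± 23.9 CPM.

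Robo2, the paralogous receptor, followed another order. Cajal-Retzius neuron-like nuclei, the reelin-producing cells of the outer molecular layer, held 4850 ± 523 CPM of Robo2 (range 3886 to 5638, n = 7 mice with at least 20 nuclei). Every one of those 7 mice was above its own CA1-like level, the next class in order at 922 ± 98.3 CPM (n = 13). Inhibitory (841 ± 85.5 CPM), mossy cell-like (mean 839 CPM) and granule-like nuclei (776 ± 63.8 CPM) came close behind with overlapping ranges. Robo2 was low in oligodendrocyte-like nuclei (61.6 ± 33.7 CPM), their precursors (88.3 CPM) and microglia-like nuclei (61.0 CPM).

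Of the ligands, Slit1 and Slit3 were granule cell and pyramidal cell transcripts. Slit1 was highest in granule-like nuclei at 392 ± 60.9 CPM, above CA3-like nuclei (296 ± 85.9 CPM) in 12 of 13 mice, and mossy cell-like (240 ± 33.7 CPM) and CA1-like nuclei (237 ± 42.3 CPM) could not be separated by their spread. Slit3 was highest in granule-like nuclei at 1932 ± 241 CPM, above CA1-like nuclei (1799 ± 223 CPM) in 13 of 13 mice, with CA3-like nuclei at 1566 ± 265 CPM. Slit3 was also counted at 913 ± 481 CPM in macrophage-like nuclei (n = 8), a cluster in which 47.3% of barcodes scored as doublets, and at 666 ± 422 CPM in mural-like nuclei (n = 9). Summed neuronal markers were at 6305 to 15217 CPM in the macrophage-like and 2218 to 9774 CPM in the mural-like sums. Slit3 was counted in 16.0% of thinned mural-like nuclei against 8.30% of microglia-like nuclei. The part of neuronal RNA was not tested in either class. Slit2 had a narrower distribution: 1351 ± 238 CPM in mossy cell-like nuclei (n = 8), 836 ± 144 CPM in CA3-like nuclei and 253 ± 69.4 CPM in inhibitory nuclei. Mossy cell-like nuclei exceeded CA3-like nuclei in 8 of 8 mice, CA3-like exceeded inhibitory nuclei in 13 of 13, and granule-like (83.7 ± 16.3 CPM) and CA1-like nuclei (56.9 ± 29.8 CPM) lay far lower. Robo1 and Slit2 were among the 2000 variable genes that shaped the clusters, and no test was made between classes.

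**Figure D1:**
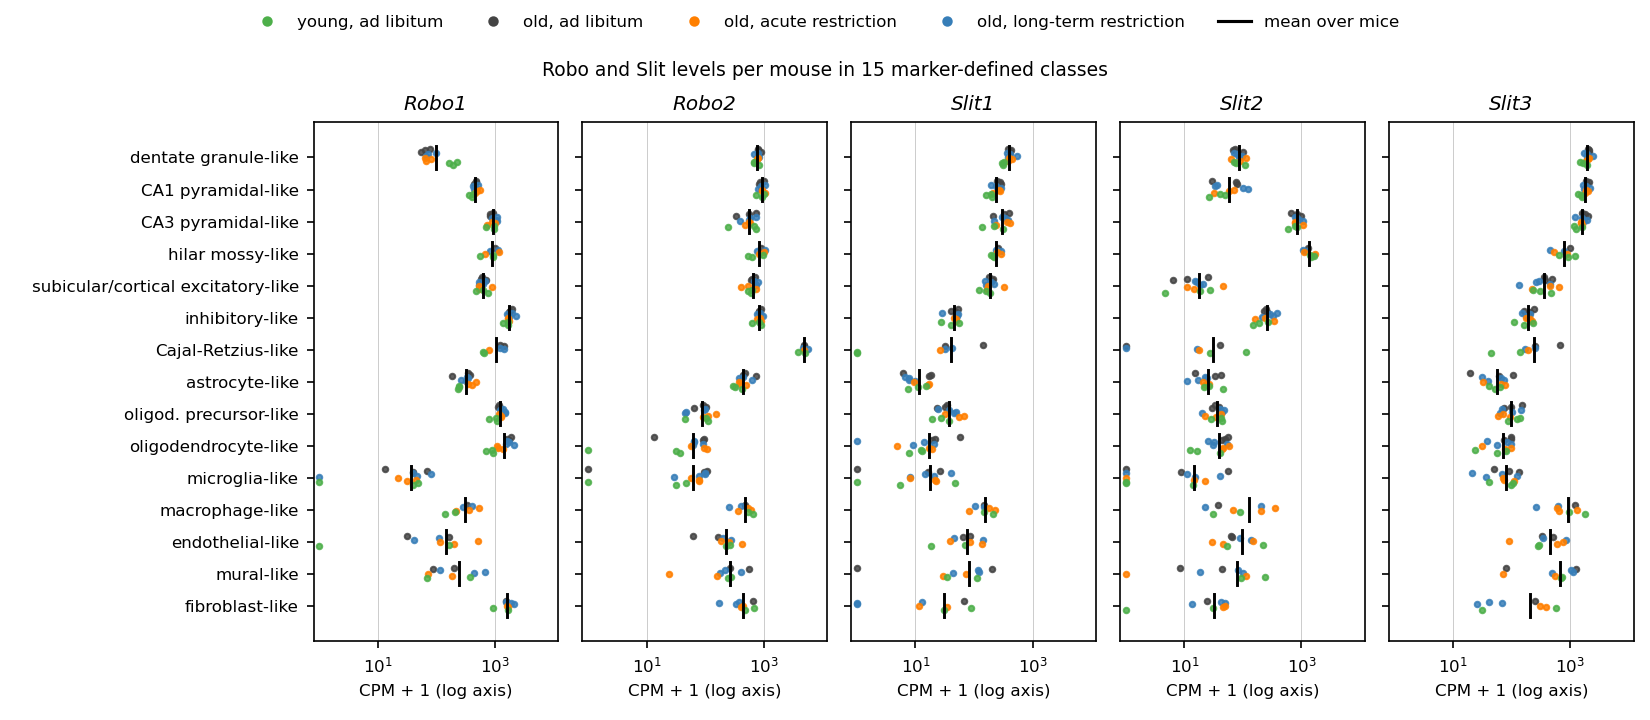
Level of each of the 5 genes in each marker-named class, in CPM plus 1 on a log axis. Points are mice with at least 20 nuclei of the class, coloured by group, and bars are means. Robo2 stands highest in Cajal-Retzius neuron-like nuclei (4850 CPM) and Slit2 in mossy cell-like nuclei (1351 CPM), while Slit1 and Slit3 are highest in granule-like nuclei (392 and 1932 CPM).

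Granule-like nuclei, with 41.7% of all UMIs, supplied 65.6% of the Slit1 UMIs, 58.4% of the Slit3 UMIs and 49.2% of the Robo2 UMIs. They supplied 8.25% of the Robo1 UMIs and 20.4% of the Slit2 UMIs. Inhibitory nuclei, with 6.97% of all UMIs, gave 24.5% of the Robo1 UMIs, and CA3-like nuclei, with 5.58% of all UMIs, gave 26.9% of the Slit2 UMIs. The largest source of both genes was the nuclei outside every class. With 24.8% of all UMIs, these gave 28.6% of the Robo1 UMIs and 32.2% of the Slit2 UMIs. For shares per nucleus, nuclei were thinned to 1000 UMIs, and those with fewer were left out (353 oligodendrocyte-like and 150 of 1632 microglia-like nuclei). Thinned, Robo1 was counted in 68.3% of fibroblast-like, 68.1% of inhibitory, 65.0% of precursor-like and 55.9% of oligodendrocyte-like nuclei, against 8.98% of granule-like nuclei. Unthinned, the shares for the last pair were 65.0% at a median of 1884.5 UMIs and 34.6% at a median of 6372 UMIs. The share in microglia-like nuclei, taken as the background of free RNA, was 3.71% thinned and 5.64% unthinned (median 1402 UMIs).

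The same measure separated expression from background for the other genes. Robo2 was counted in 96.6% of thinned Cajal-Retzius neuron-like nuclei (98.8% unthinned, median 1943 UMIs), whereas oligodendrocyte-like nuclei (7.11%) and their precursors (5.52%) were near or under the microglia-like share of 6.75%. Slit2 was counted in 70.9% of mossy cell-like and 51.7% of CA3-like nuclei against 2.29% of microglia-like nuclei, and Slit3 in 82.99% of CA1-like and 81.8% of granule-like nuclei against 8.30%. Slit1 reached 29.9% of granule-like nuclei against 1.69% of microglia-like nuclei. In oligodendrocyte-like nuclei Slit1 (1.62%) and Slit3 (7.67%) were below the microglia-like share, so their levels there are read as background.

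Interneuron types, separated by a second clustering of the inhibitory nuclei, differed in ligand and receptors. Slit2 stood at 827 ± 164 CPM in parvalbumin-like interneurons (range 469 to 1032, n = 13 mice), at 83.5 CPM in somatostatin-like, 62.0 CPM in Lamp5-like, 5.49 CPM in Vip-like and 4.69 CPM in Cck Cnr1-like interneurons. The Lamp5-like mean came mostly from sub-cluster 13, led by Tafa1 and Glis3, which held 198 CPM (670 UMIs in 212 nuclei, pooled over mice), while the 3 other Lamp5-like sub-clusters held 2.25 to 16.3 CPM. Sub-cluster 13 also held 147 CPM of Slit1 and 790 CPM of Slit3, against at most 43.3 and 168 CPM in those 3. Glis3 was also a marker of the granule-like class, so the Lamp5-like name of sub-cluster 13 is uncertain. Slit2 was among the leading genes of 2 of the 3 parvalbumin-like sub-clusters, so this level is a description. Those 2 held 866 and 1185 CPM (pooled over mice), while sub-cluster 16, led by Mctp2, Fras1 and Aox3, held 199 CPM. A further sub-cluster of 451 nuclei led by Slit2 itself (928 CPM) met no type's naming rule and is outside these means. Robo2 had its lowest type mean in parvalbumin-like interneurons, 424 ± 62.7 CPM, and its highest, 1184 ± 183 CPM, in Lamp5-like interneurons, with ranges over mice that did not overlap. The order did not hold within types: pooled Robo2 levels were 346 to 509 CPM in the parvalbumin-like sub-clusters, 291 to 1935 CPM in the Lamp5-like and 271 to 994 CPM in the Vip-like ones. The unnamed sub-cluster of 451 nuclei led by Slit2 held 656 CPM of Robo2 (pooled over mice), above the parvalbumin-like sub-clusters. Type means of Robo1 ran from 1480 ± 237 CPM in somatostatin-like to 2257 ± 342 CPM in Cck Cnr1-like interneurons, with overlapping ranges. The pooled levels of sub-clusters ran from 142 to 3473 CPM in Lamp5-like, from 1059 to 3815 CPM in Cck Cnr1-like, from 225 to 2262 CPM in parvalbumin-like, from 1179 to 1886 CPM in somatostatin-like and from 1710 to 2076 CPM in Vip-like interneurons.

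**Figure D2:**
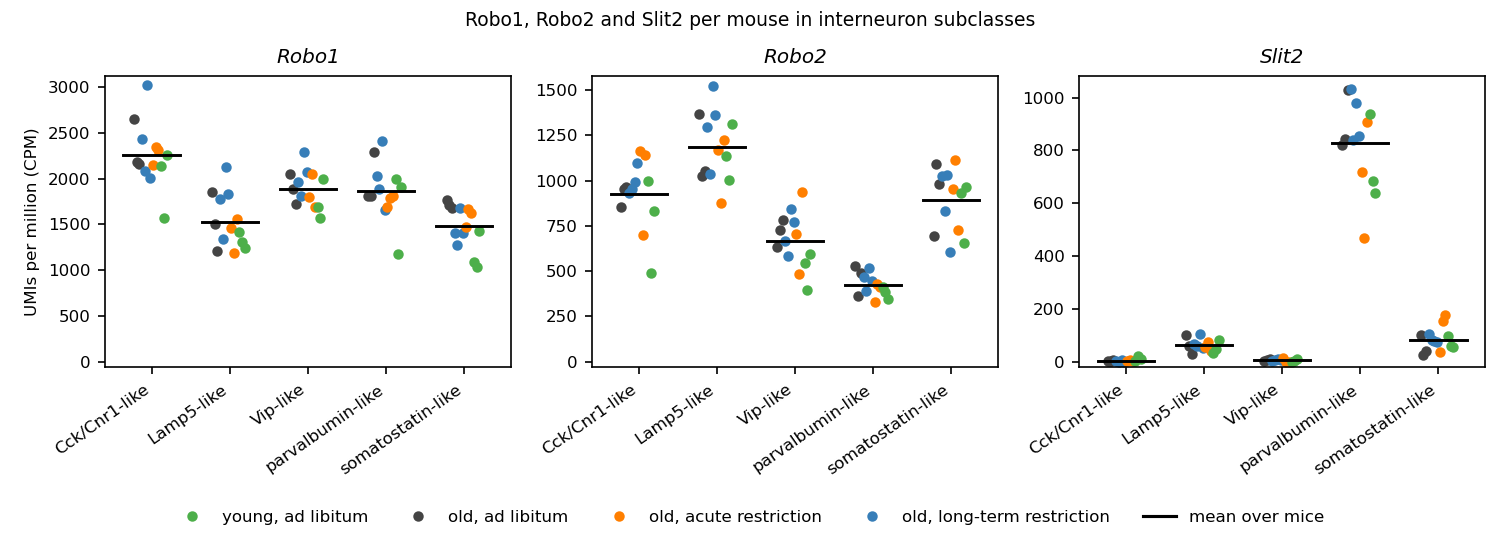
Levels of Robo1, Robo2 and Slit2 in 5 types of inhibitory neuron, in CPM from 0, with 1 point per mouse coloured by group and a bar at the mean of 13 mice. Slit2 lies at 469 to 1032 CPM in parvalbumin-like interneurons, and Robo2 has its lowest mean there (424 CPM).

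Genes whose mean CPM followed a member across the 15 classes were ranked by Pearson r over 12054 genes, as a description without a test, since the classes share libraries. Slit1 was followed by Nell2 (r = 0.98), Ryr2 (0.97) and Gm26871 (0.96), and Slit3 by Chrm1 (0.98), Galnt17 (0.97) and Camk2b (0.97). Slit1 and Slit3 themselves had an r of 0.94. For Slit2 the closest were Gm32647 and 4930467D21Rik (both 0.92) and Naa11 (0.91), for Robo2 Phtf1 (0.93), Drc3 (0.92) and Ccdc148 (0.92), and for Robo1 Iqcb1, 3110021N24Rik (both 0.87) and Purg (0.85).

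With age, Robo1 fell in dentate granule-like nuclei. Its level was 224, 164 and 195 CPM in the 3 young mice and 77.9, 63.8 and 53.7 CPM in the 3 old ad libitum mice. Every old mouse lay below every young mouse. The group means were 194 ± 30.2 and 65.1 ± 12.2 CPM, a log2 fold change of -1.42 (SE 0.20), with an adjusted p of 0.00774 (edgeR quasi-likelihood test over all genes of the class, Benjamini-Hochberg). Lower calls with age made up 0.922% of the 16912 genes tested in this class and higher calls 2.5%. In this class Robo1 was 0.33 higher on the log2 scale in the libraries numbered 1 than in the others (SE 0.11, adjusted p = 0.0399, edgeR). Without the 4 libraries numbered 1 the log2 fold change was -1.42 (adjusted p = 0.000510, edgeR); without old ad libitum mouse 2 it was -1.40 (adjusted p = 0.0726), and without mouse 4 it was -1.28 (adjusted p = 0.0512).

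The restricted old mice had Robo1 levels like those of the old ad libitum mice in granule-like nuclei, at 63.6, 80.4 and 66.2 CPM after acute restriction and 97.0, 72.4, 66.9 and 64.8 CPM after long-term restriction. All 7 lay below the lowest young mouse. The log2 fold change against the old ad libitum mice was 0.11 (SE 0.20) for acute and 0.22 (SE 0.19) for long-term restriction, and neither passed the test (adjusted p = 0.998 and 1.00, edgeR). In nuclei thinned to 1000 UMIs, Robo1 was counted in 13.7% to 18.97% of young, 5.24% to 6.15% of old ad libitum, 5.98% to 6.20% of acutely restricted and 5.31% to 8.49% of long-term restricted granule-like nuclei per mouse. The thinned share of microglia-like nuclei, taken as background, was 3.71% over all mice. The unthinned granule-like shares were 38.1% to 58.4% in young and 27.3% to 39.4% in old ad libitum mice, whose median UMIs per nucleus were higher (7083 to 12838.5, against 3881 to 6573 in young mice). Summed glial markers, all 8 of 8 detected in every mouse, were at 266 to 322 CPM in young and 310 to 355 CPM in old ad libitum granule sums; their part in the result was not tested.

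**Figure D3:**
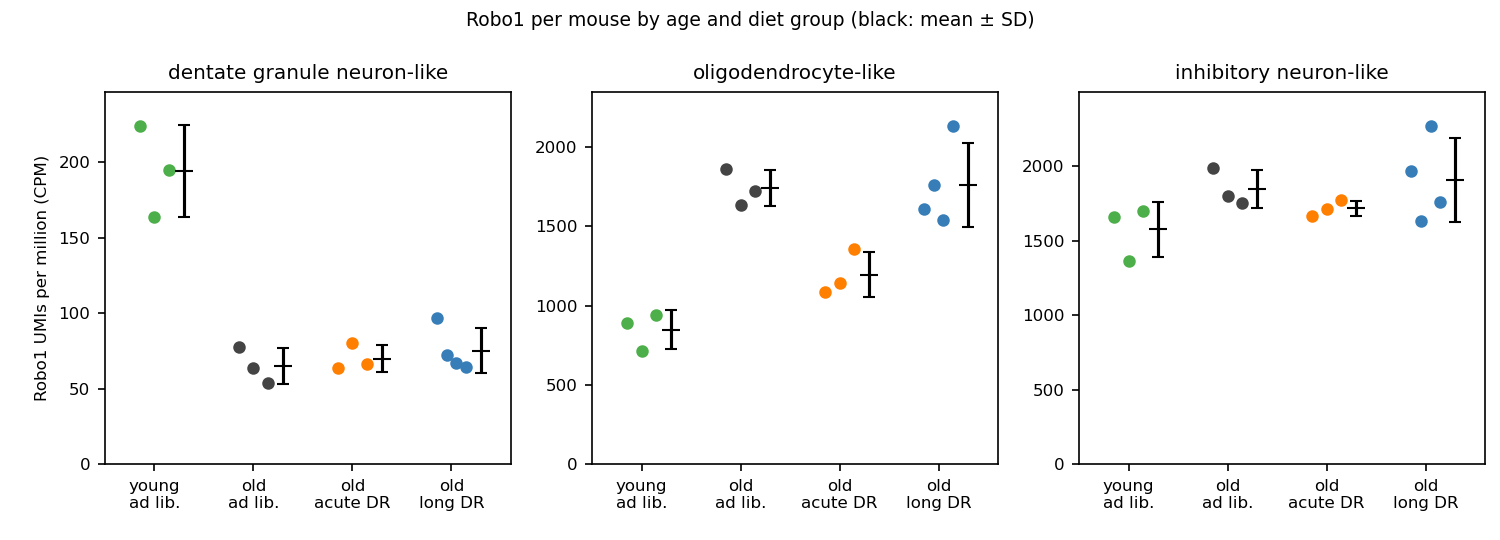
Robo1 level per mouse (points) in granule-like, oligodendrocyte-like and inhibitory neuron-like nuclei of the 4 groups (DR is dietary restriction), in CPM from 0, with the group mean as a black bar and the SD as a whisker. In granule-like nuclei the 3 young mice lie at 164 to 224 CPM and all 10 old mice at or below 97.0 CPM; in oligodendrocyte-like nuclei the young (713 to 943 CPM) and acutely restricted mice (1089 to 1355 CPM) lie below the other old mice.

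Granule-like nuclei formed 5 clusters whose shares differed between mice, so Robo1 was also compared within each cluster, an alternative added after the data were seen. Cluster 4, led by Gm30551, Trpc6 and Bdnf, had the lowest Robo1 level of all (42.3 ± 12.8 CPM, n = 13) and made up 2.93% to 8.86% of granule-like nuclei in young mice but 17.7% to 29.2% in old ad libitum mice. Within it the young mice had a mean of 60.8 ± 13.2 CPM and the old ad libitum mice 36.9 ± 6.53 CPM, a log2 fold change of -0.66 (SE 0.20), which did not pass the test (adjusted p = 0.0765, edgeR; 2.06% of genes called). In the 2 largest clusters, 0 and 1, the log2 fold changes were -0.93 (SE 0.18, adjusted p = 0.0194) and -1.27 (SE 0.16, adjusted p = 0.000803, edgeR), where 3.18% and 2.71% of genes were called.

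Cluster 6, led by Ano2, Gmnc and Trhr, showed the widest gap, with 211 ± 25.9 CPM in young and 39.4 ± 3.98 CPM in old ad libitum mice and a log2 fold change of -2.28 (SE 0.24, adjusted p = 0.000292, edgeR; 6.32% of genes called). Its Slit2 level, the highest among the granule clusters (183 ± 36.4 CPM over 13 mice), changed by -0.49 (SE 0.14, adjusted p = 0.0380, edgeR), while Robo2 changed by 0.64 there (SE 0.13, adjusted p = 0.0110). Cluster 13 gave -1.43 for Robo1 (SE 0.30, adjusted p = 0.0323, edgeR; 0.631% of genes called) with only 2 old ad libitum mice. In all 5 clusters every old ad libitum mouse lay below every young mouse. The old ad libitum means of clusters 4 and 6 were near the Robo1 level of microglia-like nuclei, the background class (36.2 ± 23.9 CPM). The old end of the changes in these clusters therefore lies near the floor. Robo1 was among the genes used for clustering, so the clusters are not independent of it.

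**Figure D4:**
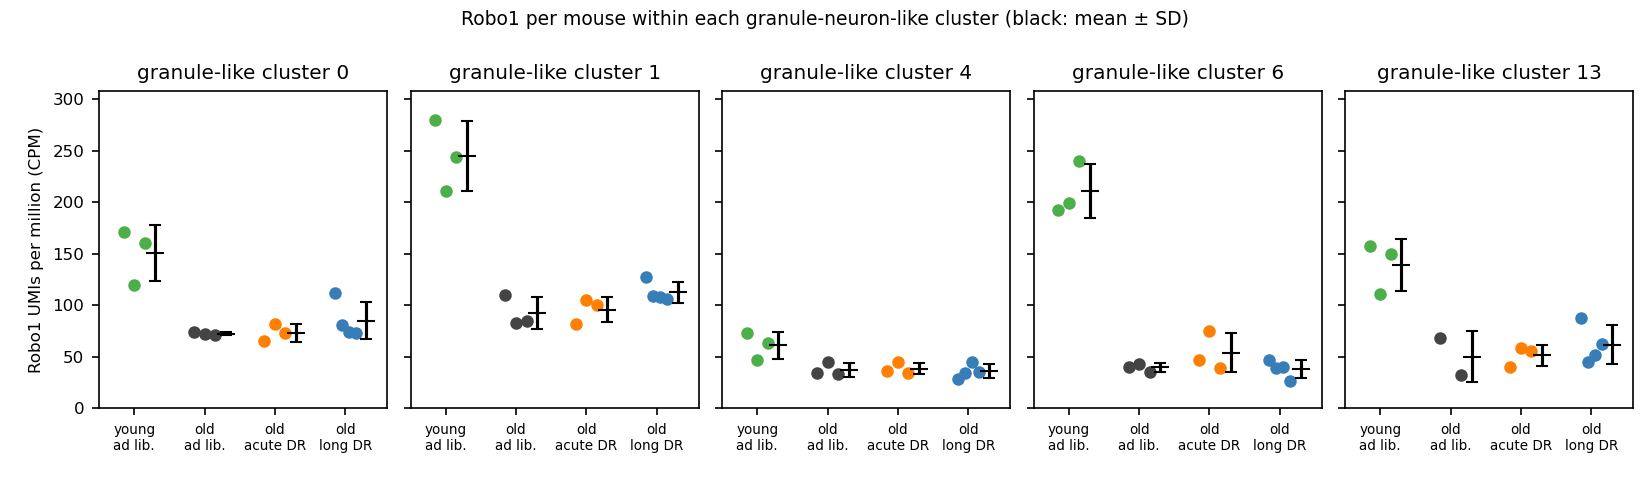
Robo1 level per mouse within each of the 5 granule-like clusters for the 4 groups (DR is dietary restriction), in CPM from 0, with means and SD in black. Young mice lie above old ad libitum mice in every cluster, by the widest gap in cluster 6 (193 to 241 against 35.2 to 43.1 CPM).

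Long genes as a group moved the other way in granule-like nuclei. The 2621 tested genes spanning 100 kb or more had a median log2 fold change with age of 0.27, and 75.4% of them were positive, against a median of -0.04 over all genes. Only 32 of these long genes had a lower value than Robo1; 14 were called lower and 287 higher. With the length trend removed, the Robo1 change was -1.79 (adjusted p = 0.00220, edgeR), and with the median UMIs per nucleus as a covariate it was -1.78 (adjusted p = 0.0467). The part of gene length and of UMIs per nucleus in the Robo1 change was not tested.

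In oligodendrocyte-like nuclei Robo1 was higher in old mice and lower again after acute restriction, as already known when the genes were chosen, so no p is given. The young mice had 894, 713 and 943 CPM, the old ad libitum mice 1860, 1637 and 1725 CPM, the acutely restricted mice 1089, 1144 and 1355 CPM and the long-term restricted mice 1607, 1758, 1543 and 2135 CPM. Neither the young nor the acutely restricted mice overlapped with the old ad libitum mice, and the long-term restricted mice did. The log2 fold change was 1.11 (SE 0.14) with age, -0.61 (SE 0.14) with acute restriction and -0.00 (SE 0.13) with long-term restriction. Of the 11368 genes tested in the class, 3.66% were called higher and 4.18% lower with age, and 0.853% higher and 1.14% lower with acute restriction. Long-term restriction gave 0.132% higher and 0.264% lower, and long-term against acute restriction 0.0352% higher and 0.0792% lower.

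Other measures of the class followed the Robo1 pattern in part. Long genes had a median log2 fold change with age of 0.32 in this class, and the Robo1 change was 0.30 once the length trend was removed. Of the 2051 long genes tested here, 261 had a higher value than Robo1, and 335 were called higher and 44 lower. With acute restriction the long genes had a median of -0.14, with 31.7% of them positive. The Robo1 change was then -0.30 with the trend removed and -0.42 with median UMIs as a covariate. With long-term restriction, where Robo1 changed by -0.00, the long genes had a median of -0.09, with 34.6% of them positive. Thinned to 1000 UMIs, Robo1 was counted in 41.6% to 43.2% of young, 59.7% to 64.8% of old ad libitum, 42.0% to 55.6% of acutely restricted and 52.9% to 75.1% of long-term restricted nuclei per mouse. Left out for having fewer UMIs were 213 young nuclei (186 of the 732 of young mouse 2), 35 old ad libitum, 72 acutely restricted and 33 long-term restricted nuclei. Median UMIs per nucleus were 1182 to 1661 in young, 1988 to 3169 in old ad libitum, 1577 to 1889 in acutely restricted and 1673 to 2300 in long-term restricted mice. Summed neuronal markers (9 of 9 detected) were at 848 to 1221, 1182 to 1980, 1608 to 1729 and 963 to 2288 CPM in the same order. The part of these measures in the result was not tested. Without the libraries numbered 1 the changes were 1.00 with age and -0.43 with acute restriction, and young mouse 1 had only 47 such nuclei.

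Across the 5 genes and the 11 classes with enough mice, 50 of 55 gene and class pairs were tested. The others were Robo1 in microglia-like nuclei and Slit1 and Slit2 in microglia-like and mural-like nuclei, where counts were too low. With age 2 pairs were past the threshold, and 1.63% of all 106071 gene and class pairs were. They were Robo1 in granule-like nuclei, described above, and Robo1 in oligodendrocyte-like nuclei, a value that chose the genes and from which nothing is read. Of the 50 log2 fold changes 39 were positive, and their median was 0.32 against -0.02 over all genes. Genes spanning 100 kb or more had positive medians in all 11 classes, between 0.05 and 0.32. The share of them with a positive change ran from 53.2% in endothelial-like to 83.8% in oligodendrocyte-like nuclei. The part of gene length in the member changes was not tested.

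**Figure D5:**
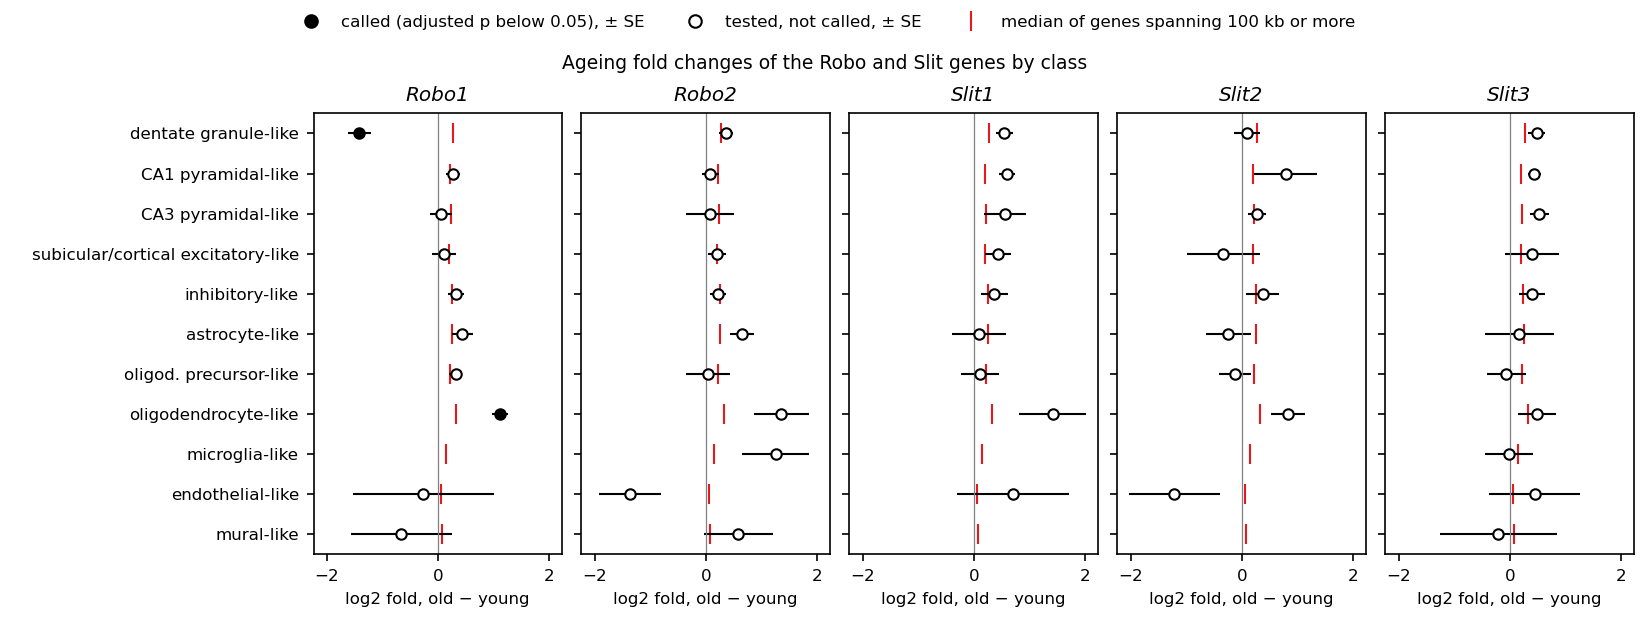
Log2 fold change with age (old minus young, both ad libitum) of each member in each fitted class, with its standard error as a whisker, beside the median of tested genes spanning 100 kb or more. Robo1 in granule-like nuclei lies at -1.42, while Slit1 and Slit3 lie between 0.44 and 0.59 in granule-like nuclei and in both pyramidal classes, and filled points mark called pairs.

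In the principal neurons Slit1 and Slit3 had higher means in old mice. Over whole classes neither passed the test when the 4 groups were the only terms of the edgeR fit. Slit1 in granule-like nuclei was at 327, 303 and 314 CPM in young mice and 383, 435 and 410 CPM in old ad libitum mice, groups that did not overlap, with a log2 fold change of 0.54 (SE 0.15, adjusted p = 0.0617, edgeR). Slit3 in the same nuclei was at 1453, 1664 and 1902 CPM in young and 2034, 2109 and 2087 CPM in old mice, with a change of 0.48 (SE 0.15, adjusted p = 0.0795, edgeR). In CA1-like nuclei 0 of 12845 genes were called with age, and 75.2% of the tested genes spanning 100 kb or more had a positive change. As a description only, every old mouse again lay above every young mouse there for both ligands. Slit1 went from 196, 159 and 198 CPM to 251, 274 and 283 CPM (0.59, SE 0.14, adjusted p = 0.127), and Slit3 from 1375, 1537 and 1599 CPM to 1865, 2109 and 1954 CPM (0.44, SE 0.12, adjusted p = 0.129, edgeR). DESeq2 called all 4 of these pairs, and with it 10.4% of all genes tested in granule-like and 2.06% in CA1-like nuclei (3.42% and 0% with edgeR). With the length trend removed none was called, and the changes were 0.33 for Slit1 and 0.13 for Slit3 in granule-like nuclei and 0.42 and 0.18 in CA1-like nuclei; with median UMIs as a covariate none was called either, and in granule-like nuclei the changes were 0.30 and 0.26. Within single granule-like clusters (an alternative added after the data were seen) Slit1 rose with age in clusters 0, 1, 4 and 6, by 0.70, 0.64, 0.77 and 0.56 (adjusted p = 0.0260, 0.0365, 0.0264 and 0.0266, edgeR), and changed by 0.22 in cluster 13 (adjusted p = 0.532). Slit3 was called in none of the 5 (adjusted p from 0.0574 to 0.257). Slit2 did not follow: its change was 0.09 (SE 0.23) in granule-like and 0.26 (SE 0.16) in CA3-like nuclei, with overlapping groups in each. Within granule-like clusters 0, 1, 4, 6 and 13 the Slit2 change was negative, at -0.13, -0.15, -0.50, -0.49 and -0.10. Only cluster 6 passed the test (adjusted p = 0.0380, edgeR). That cluster, the highest for Slit2, made up 6.92% to 9.03% of granule-like nuclei in young and 12.8% to 29.5% in old ad libitum mice. The part of these shares in the whole-class value was not tested. In oligodendrocyte-like nuclei Slit2 was at 11.3, 15.5 and 39.4 CPM in young and 54.5, 47.7 and 43.3 CPM in old ad libitum mice, groups that did not overlap (0.82, SE 0.31, adjusted p = 0.0979, edgeR). These are low levels, with Slit2 counted in 3.26% of thinned nuclei of the class against the microglia-like 2.29%.

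Robo1 in other classes differed less with age than in granule-like nuclei. In inhibitory nuclei it was at 1658, 1366 and 1701 CPM in young and 1988, 1799 and 1752 CPM in old ad libitum mice, a change of 0.33 (SE 0.15, adjusted p = 0.233, edgeR). In oligodendrocyte precursor-like nuclei it was at 1052, 809 and 1110 CPM and 1166, 1137 and 1223 CPM (0.31, SE 0.12, adjusted p = 0.154). Both pairs of groups were just separated, and neither change passed the test. In CA1-like nuclei the change was 0.27 (SE 0.12, adjusted p = 0.263), and in CA3-like nuclei 0.05 (SE 0.20) with overlapping groups.

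Robo2 did not pass the test with age in any whole class when the 4 groups were the only terms of the edgeR fit. In astrocyte-like nuclei it was at 297, 322 and 421 CPM in young and 476, 442 and 730 CPM in old ad libitum mice, a change of 0.65 (SE 0.21, adjusted p = 0.202, edgeR), with groups that did not overlap. In granule-like nuclei it was at 691, 692 and 819 CPM and 803, 794 and 914 CPM, which overlapped (0.35, SE 0.12, adjusted p = 0.1002). In oligodendrocyte-like nuclei, where its level is at background, it was at 0, 31.0 and 35.5 CPM in young and 12.4, 94.6 and 92.4 CPM in old mice (1.35, SE 0.49, adjusted p = 0.131). The lowest mouse of each group was number 1, with few nuclei, and without the libraries numbered 1 the change was 1.47 (adjusted p = 0.000446, edgeR).

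Long-term restriction gave 0 calls among the 50 pairs by edgeR, with 3 at an unadjusted p under 0.05, and 0 by DESeq2, against 0.0556% and 0.0669% of all pairs. With acute restriction, and with long-term against acute restriction, the only pair past the threshold was Robo1 in oligodendrocyte-like nuclei, already known when the genes were chosen, so nothing is read from either count (0.238% and 0.0123% of all pairs were past it). Robo1 in oligodendrocyte precursor-like nuclei was at 1400, 1217, 1503 and 1465 CPM after long-term restriction, beside 1166, 1137 and 1223 CPM in the old ad libitum mice, a change of 0.27 (SE 0.11, adjusted p = 0.703, edgeR), with overlapping groups. Slit1 in the same nuclei was at 31.5, 67.4 and 55.0 CPM after acute restriction and 33.2, 31.2 and 22.2 CPM in the control mice, also overlapping (0.84, SE 0.28, adjusted p = 0.459). In endothelial-like nuclei Robo2 had a mean of 287 ± 118 CPM after acute restriction (n = 3) and 112 ± 71.0 CPM in the old ad libitum mice (n = 2), and the change of 1.54 (SE 0.50, adjusted p = 0.994) rested on few nuclei.

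The other genes of the pathway were a list of 38 genes of guidance receptors and ligands, srGAP effectors, heparan sulfate synthesis and Robo trafficking, chosen with results of these data known. In all, 37 were tested, in 322 gene and class pairs. With age 3 pairs rose and 3 fell, with acute restriction 0 rose and 2 fell, with long-term restriction 0 rose and 1 fell, and none was called between the restriction regimes. Over all genes 1.63% of pairs were called with age, 0.238% with acute and 0.0556% with long-term restriction, in either direction. The median log2 fold change of the list with age was 0.14, against -0.02 over all genes and 0.05 to 0.32 for long genes by class.

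Among heparan sulfate genes, Hs6st2, a sulfotransferase that modifies these chains, rose with age in granule-like nuclei from 12.7, 11.9 and 17.0 CPM to 19.4, 26.5 and 24.1 CPM (log2 fold change 0.92, SE 0.15, adjusted p = 0.0141, edgeR). Sdc2, a syndecan core protein that carries them, rose there from 28.6, 26.7 and 28.0 CPM to 34.2, 38.5 and 40.96 CPM (0.61, SE 0.13, adjusted p = 0.0331). The age groups did not overlap for either gene. Neither was called within any of the 5 granule-like clusters alone, and in cluster 4 the Hs6st2 change was -0.18; each also lost its call without old ad libitum mouse 2, old ad libitum mouse 4 or young mouse 2. Flrt3, a transmembrane protein that binds Robo1, fell in granule-like nuclei from 67.7, 196 and 115 CPM to 46.8, 47.9 and 55.4 CPM (-1.14, SE 0.27, adjusted p = 0.0454) and in oligodendrocyte precursor-like nuclei from 54.4, 129 and 107 CPM to 32.1, 28.3 and 30.5 CPM (-1.59, SE 0.26, adjusted p = 0.00275). Young mouse 1 was the lowest of its group in both, and none of the 3 old ad libitum mice overlapped with the young. In granule-like nuclei long-term restricted mouse 4, at 69.3 CPM, and acutely restricted mouse 3, at 75.4 CPM, lay above young mouse 1. The granule-like call was lost in 16 of 29 alternatives, among them the omission of 10 of the 13 mice in turn. Ndfip1, an adaptor of ubiquitin ligases, fell in the precursors from 362, 336 and 276 CPM to 212, 189 and 204 CPM (-0.62, SE 0.15, adjusted p = 0.0392).

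Dcc, the netrin receptor that Robo1 can silence, was the list gene called under both restriction regimes. Its oligodendrocyte-like level was 983, 785 and 797 CPM in the old ad libitum mice, 300, 356 and 413 CPM after acute restriction and 456, 528, 503 and 556 CPM after long-term restriction. Both restricted groups lay wholly below the controls, which they share. The log2 fold change was -1.30 (SE 0.16, adjusted p = 8.21e-06, edgeR) after acute and -0.75 (SE 0.14, adjusted p = 0.0130) after long-term restriction. The acute call held in all 24 alternatives tried, while the long-term change was -0.56 and not called without the libraries numbered 1, and -0.37 and not called with the length trend removed. Young mice, at 1199, 624 and 878 CPM, overlapped with the old ad libitum mice. Srgap2, a Robo effector, fell in the same nuclei with acute restriction from 134, 157 and 191 CPM to 106, 82.5 and 97.2 CPM (-0.90, SE 0.18, adjusted p = 0.00377), again without overlap. After long-term restriction Srgap2 was at 86.2, 99.6, 119 and 114 CPM, also wholly below the controls, but was not called. In microglia-like nuclei Dcc rose with age from 0, 65.7 and 60.9 CPM to 111, 239 and 227 CPM (1.81, SE 0.42, adjusted p = 0.0284). This class served above as the background of free RNA, and its summed neuronal markers (8 or 9 of 9 detected) were at 782, 1530 and 970 CPM in the same young mice and 872, 2556 and 2117 CPM in the same old mice. Old mouse 1 was the lowest of its group in both measures; the part of free RNA in this result was not tested, and the call was lost in 8 of 24 alternatives.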

How the data were processed

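Nuclei of whole frozen hippocampus of 13 mice were profiled by droplet sequencing (10x Genomics). Per the submitters' processing notes, the authors used Cell Ranger 4.0.0 with the mm10 build and deposited UMI counts per gene and nucleus. Intron counting, strand, free-RNA correction and doublet removal are not given in the sources used here. Of 105759 barcodes, 105427 passed a floor of 500 genes and a ceiling of 5% mitochondrial UMIs, and 7386 doublets (7.01%) were removed with a simulated-doublet score at 0.8% per 1000 barcodes. Nuclei were clustered in scanpy 1.11.5 (2000 variable genes, 30 components, 20 neighbours, Leiden resolution 1) into 37 clusters. A cluster took a class name where at least 3 and 50% of the listed markers were raised with a mean log2 fold of at least 1, a rule set after clusters were seen; 21 were named and 18244 nuclei stayed unnamed. Clusters led by mitochondrial genes or with more than 50% doublets stayed unnamed. The macrophage-like cluster kept its name although 47.3% of its barcodes scored as doublets. Counts were summed per mouse and class (at least 20 nuclei) and fitted in edgeR 4.0.16 with limma 3.58.1 in R 4.3.3, with TMM scaling and quasi-likelihood tests over the 4 groups together, in 11 classes, with p adjusted over all genes of a class at 0.05. The fit was tested on simulated data. Alternatives were DESeq2 1.42.0, other scaling, filters, covariates, a replicate block and single mice left out; the fits within granule clusters and without the libraries numbered 1 were added after seeing the data. Members, gene lists and tests were chosen with earlier results of these data known. Text names all 5 members, the list genes called, and for each member the 3 genes of highest r. The 18244 unnamed nuclei enter no fit between groups. Their UMIs are part of the totals behind the shares of UMIs, and the levels of some of their clusters are described.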

Additional observations from a re-analysis of the deposited data

Results flagged for a closer look

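The order of old and young mice in Robo1 differed between classes. Every old ad libitum mouse lay below every young mouse in granule-like nuclei (log2 fold change -1.42) and above every young mouse in CA1-like (0.27), inhibitory (0.33), oligodendrocyte precursor-like (0.31) and oligodendrocyte-like nuclei (1.11). The difference between classes was not tested. The CA1-like, inhibitory and precursor-like changes did not pass the test (adjusted p = 0.263, 0.233 and 0.154, edgeR). Genes of 100 kb or more had medians of 0.20, 0.24 and 0.22 in those classes, and the precursor-like change was -0.022 with the length trend removed. The part of gene length was not tested.

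Among long-term restricted mice, the oligodendrocyte-like Robo2 level was 90.0 CPM in mouse 3 and at 64.6, 64.5 and 59.9 CPM in the others, a gap that is large for 4 samples by Dixon's criterion. It was 1 of 45 gene and class groups of 4 mice examined, and chance gives about 1 in 20.

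Clusters that stayed unnamed also held members. Slit2 was at 2953 ± 498 CPM (SD, n = 5 mice) in cluster 32, 221 nuclei led by Slc47a1 and Slc26a7, above its mossy cell-like mean of 1351 CPM. Slit3 was at 2050 ± 244 CPM (n = 13) in cluster 9, 3144 nuclei led by Cpne7 and Pde11a, beside 1932 CPM in granule-like nuclei.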

How the results depend on the processing

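Calls among the 50 pairs with age numbered 2 (1.63% of all gene and class pairs were called), and 6 with DESeq2 (3.17%), 5 without a filter on low counts (1.28%), 7 with a term for the libraries numbered 1 (7.02%), 5 without those libraries (7.2%, added after seeing the data), 1 with median UMIs as a covariate (0.0236%), 1 with the gene length trend removed (0.638%) and 1 to 4 when single mice were left out (0.209% to 3.97%; 1 without old ad libitum mouse 2 or 4, 4 without long-term restricted mouse 3). Of the 2 age calls, 1 was Robo1 in oligodendrocyte-like nuclei, already known when the genes were chosen. That pair was the call left without old ad libitum mouse 2 or 4. The calls of acute restriction and of long-term against acute restriction were the same gene and class, so nothing is read from these counts. The call of acute restriction (1) became 0 with median UMIs, the length trend or nuclei of at least 1000 genes, and ranged from 0 to 1 without single mice (0 without old ad libitum mouse 1 or acutely restricted mouse 1 or 2). The call of long-term against acute restriction (1) became 0 under the same 3 settings, with doublets kept and without the libraries numbered 1, and ranged from 0 to 1 without single mice (0 for 8 of 13 mice, among them each old ad libitum and each acutely restricted mouse and long-term restricted mice 2 and 4). The causes were not tested.

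Shared replicate numbers were not taken to pair the samples, since 89 of 160 same-numbered pairs, not all, correlated above 0.1. In granule-like nuclei the 6 pairs of libraries numbered 1 correlated at 0.36 to 0.78 and the 10 other same-numbered pairs at -0.12 to 0.40. With the number as a replicate block, ageing calls numbered 11, while calls over all pairs went from 1.63% to 5.86%: the 2 of Robo1, with Robo2 in astrocyte-like and oligodendrocyte-like nuclei, Slit1 and Slit3 in granule-like, CA1-like and oligodendrocyte-like nuclei and Slit2 in oligodendrocyte-like nuclei.

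The Robo1 change in granule-like nuclei ranged from -2.28 to -0.66 over 29 alternatives and was called in 26. Signs turned for Robo1 in oligodendrocyte precursor-like nuclei (-0.022) and Slit3 in oligodendrocyte-like nuclei (-0.21) with the length trend removed, and for Hs6st2 in granule cluster 4 alone (-0.18). The age change of Slit2, positive over granule-like nuclei as a whole, was negative in each granule cluster alone (from -0.50 to -0.10). The class with the highest level was the same for 3 of 5 members at Leiden resolution 0.5 (Robo1 then highest in a class named by immature neuron markers with only 2 mice, at 239 and 5527 CPM, and Slit2 in CA3-like nuclei, as no mossy cell-like class was formed) and for 3 in thinned shares (Robo1 fibroblast-like, Slit3 CA1-like), and for 5 at resolution 2. Among list genes, calls were lost without single mice for Srgap2 (old ad libitum mouse 4, acutely restricted mouse 2), Dcc in oligodendrocyte-like nuclei with long-term restriction (old ad libitum mouse 1, long-term restricted mouse 2), Dcc in microglia-like nuclei (old ad libitum mice 2 and 4, young mice 2 and 3), Ndfip1 (6 of 13 mice), Sdc2 (6) and Flrt3 in granule-like nuclei (10). At resolution 2 the oligodendrocyte-like class shrank from 10010 to 3585 nuclei. Its Robo1 mean was then 804 CPM, against 1416 CPM at resolution 1. Low counts limit glial Slit values and vascular classes.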

Other observations

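Cluster 9, which did not meet the naming rule, differed from the CA1-like cluster 5 in 3 of the 5 genes, although both have Gm10754 and Gm2115 among their leading genes. Robo1 was at 971 ± 213 CPM (range 642 to 1341) in cluster 9 and 457 ± 47.7 CPM (366 to 548) in cluster 5, Slit2 at 406 ± 82.7 CPM (259 to 557) and 56.9 ± 29.8 CPM (25.7 to 120), and Robo2 at 454 ± 91.8 CPM (287 to 584) and 922 ± 98.3 CPM (736 to 1071), each over 13 mice. The ranges of the mice did not overlap for any of the 3, with the receptors in opposite order. Slit1 and Slit3 overlapped between the clusters.

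Cluster 33, 178 nuclei led by D130079A08Rik, D130009I18Rik, Tac2, Chat and Chrna3, gave the highest pooled Robo1 level seen, 5266 CPM from 5856 UMIs, but only 1 mouse had at least 20 of its nuclei, so there is no spread between mice.

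Within the granule-like clusters Slit1 ranged from 227 ± 50.8 CPM in cluster 4 to 497 ± 91.4 CPM in cluster 1, and Robo2 from 653 ± 94.6 CPM in cluster 6 to 959 ± 77.2 CPM in cluster 4 (n = 13 mice each).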
